A study of Mus musculus with 9 samples.

Results

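The mitochondrial genome transcripts described here are the 37 genes that the count table of 55471 mouse genes places on the mitochondrial chromosome, taken by their symbols, which begin with mt-. They comprise 13 mRNA genes, 2 rRNA genes and 22 tRNA genes. Gastrocnemius muscle, the large muscle of the calf, was sampled at postnatal day 0 to 1 from mice labelled C57BL/6, 1 RNA sequencing library per mouse. The 5 Shank3Δ11(-/-) mice (KO1 to KO5) lack exon 11 of Shank3, a gene of a synaptic scaffold protein, in both copies, and the 4 Shank3(+/+) mice (WT1 to WT4) are the controls. By the methods of the study the knock-outs came from matings of heterozygous C57BL/6JRj mice and the wildtype C57BL/6 mice were supplied by an animal research center. Whether any of the mice were littermates is not in the labels, nor is their sex. The study left KO2 and KO4 out of its own comparison for too few reads, so the comparison below sets the 3 mice KO1, KO3 and KO5 against the 4 controls, and values over all 9 mice follow. The deposited total counts were 28211941 for KO2 and 40471957 for KO4, within a range of 26444372 (KO5) to 40471957 over the 9 libraries.

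The mitochondrial genome is a small circle that is copied in both directions into long precursor RNAs. tRNAs stand between most of its mRNAs and rRNAs, and their excision frees the messages. The mRNAs encode core subunits of respiratory complexes I, III and IV and of the ATP synthase, which is complex V, and the rRNAs and tRNAs serve the translation of these messages inside the organelle. Skeletal muscle is rich in mitochondria, and every other protein they contain is made from nuclear genes. Stretches of mitochondrial DNA have also been copied into nuclear chromosomes in the past, and such nuclear copies can share reads with the originals.

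The sequences of 2 tRNA genes are shown because these were the members with the lowest p-values between the genotypes. The sequences come from the GENCODE M21 transcripts of GRCm38 (mm10), are written 5′ to 3′, and carry the anticodon in capitals. mt-Tg is the glycine tRNA, on the plus strand at chrM:9391-9458 between mt-Co3 and mt-Nd3. mt-Td is the aspartate tRNA, on the plus strand at chrM:6942-7011 between mt-Ts1 and mt-Co2.
mt-Tg: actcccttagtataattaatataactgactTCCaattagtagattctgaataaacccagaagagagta
mt-Td: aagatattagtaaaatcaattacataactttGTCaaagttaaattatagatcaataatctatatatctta

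Both genes lie in a stretch in which 7 mRNA genes have nearly identical copies side by side in the nucleus. mt-Atp8 also lies in this stretch, next to mt-Atp6, and no copy of it was found among annotated nuclear transcripts. On chromosome 1 of GRCm38, on the minus strand between positions 24611535 and 24616197, 7 genes annotated as unprocessed pseudogenes match 7 mitochondrial mRNA genes in the same order, from the end of mt-Co1 to the first part of mt-Nd4. Gm28661 matched mt-Co2 over 681 bases with 0 mismatches, Gm10925 matched mt-Atp6 over 678 bases with 0 mismatches, and Gm28437 matched mt-Co3 over 783 bases with 0 mismatches. Gm10222 (mt-Nd4l, 294 bases) and Gm28439 (mt-Nd4, 876 bases) also had 0 mismatches. Gm29216 matched the last 483 bases of mt-Co1 with 1 mismatch, and Gm28438 matched mt-Nd3 over 345 bases with 1 mismatch. Between the matched parts of neighbouring genes, 5 of the 6 intervals had the same length on both chromosomes, such as 140 bases between mt-Co1 and mt-Co2 and 69 bases between mt-Co3 and mt-Nd3. The interval between mt-Nd3 and mt-Nd4l, which holds mt-Tr, was 73 bases on the mitochondrial chromosome and 74 on chromosome 1. The mitochondrial stretch contains 5 tRNA genes, mt-Ts1, mt-Td, mt-Tk, mt-Tg and mt-Tr, and the annotation has no gene at their places on chromosome 1. The sequence at those places, including those of mt-Tg and mt-Td, was not compared here. The start of mt-Nd3, next to mt-Tg, is shown with the start of its copy because it holds the only base by which they differ. That base is in capitals, and the difference is T3C, counted from 1 at the first base of the gene, with the mitochondrial base first.
mt-Nd3: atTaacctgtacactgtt
Gm28438: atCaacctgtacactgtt

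The libraries stood apart from each other in how reads were divided between these genes and their copies, and the mice fell into sets that are not the genotypes. This comparison was chosen after the values were seen. The number of counts on mt-Co2 divided by the number on Gm28661 was 0.865 in KO1, 0.865 in WT1, 0.859 in WT2, 0.867 in WT3 and 0.858 in WT4. It was 1.00 in each of KO2, KO3, KO4 and KO5. In KO3 the counts of mt-Co2 and Gm28661 differed by 6, against a Poisson SD of 445 that independent counts of this size would give. In WT1 the difference, gene minus copy, was -12234 counts, against a Poisson SD of 411.

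Of the other 6 pairs, 5 divided the mice in the same way. For mt-Atp6 and Gm10925 the ratio was 0.854 in KO1 and 0.837 to 0.860 in the 4 Shank3(+/+) mice, and it was 0.969, 0.977, 0.976 and 0.979 in KO2, KO3, KO4 and KO5. For mt-Co3 and Gm28437 it was 0.835 in KO1 and 0.827 to 0.843 in Shank3(+/+), with 0.987, 0.986, 0.985 and 0.984 in KO2 to KO5. For mt-Nd3 and Gm28438 it was 0.875 in KO1 and 0.864 to 0.882 in Shank3(+/+), and between 1.00 and 1.01 in KO2 to KO5. For mt-Nd4l and Gm10222 the ratio was 0.948 in KO1, 0.920 to 0.968 in Shank3(+/+), and 1.05 to 1.06 in KO2 to KO5. KO1 therefore lay within the range of the controls in these 5 pairs. For mt-Nd4 and mt-Co1 the copy matches only a part of the gene. The ratio of mt-Nd4 to Gm28439 divided the mice likewise, at 2.23 in KO1 and 2.14 to 2.29 in Shank3(+/+), and 2.40, 2.39, 2.47 and 2.67 in KO2 to KO5. The ratio of mt-Co1 to Gm29216 did not, at 2.79, 3.13, 3.13, 3.00 and 2.81 in KO1 to KO5 and 2.76, 2.73, 2.95 and 3.11 in WT1 to WT4. The set of KO2 to KO5 holds mice of 1 genotype only, so within that set no comparison of genotypes can be made. What sets these libraries apart was not tested, and base calls were not analysed here.

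**Figure D1:**
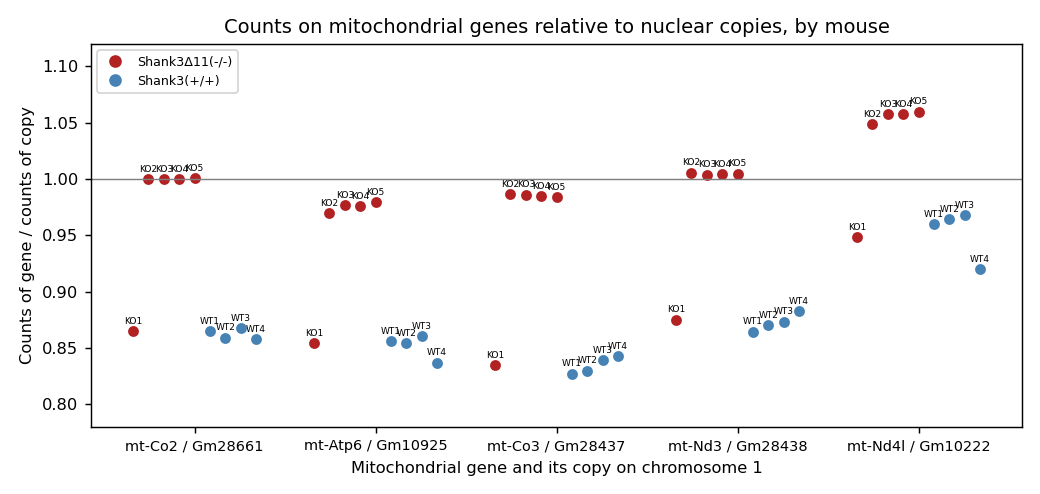
Counts on 5 mitochondrial mRNA genes divided by counts on their copies on chromosome 1 (vertical axis, a ratio without unit), with 1 point per mouse. KO2 to KO5 sit at 0.969 to 1.06, and KO1 sits beside the 4 Shank3(+/+) mice at 0.827 to 0.968.

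The mitochondrial genes took between 3.81% and 7.88% of all counts, and the genotypes overlapped. Their share was 5.17% in KO1, 3.98% in KO2, 5.42% in KO3, 7.88% in KO4 and 6.52% in KO5. In the controls it was 4.21% in WT1, 6.54% in WT2, 4.36% in WT3 and 3.81% in WT4. KO4 was the highest mouse and WT4 the lowest, WT2 was above all Shank3Δ11(-/-) mice but KO4, and KO2 was below every control but WT4. The mean share was 5.70% ± 0.717 (SD, n = 3) in KO1, KO3 and KO5 and 4.73% ± 1.23 (SD, n = 4) in Shank3(+/+), a ratio of 1.20. Over all mice it was 5.79% ± 1.48 (SD, n = 5) in Shank3Δ11(-/-), a ratio of 1.22. The difference between the means was smaller than the SD of the controls. In bulk muscle, fewer cells of a type and less RNA per cell cannot be told apart.

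Beyond the mitochondrial genes, all 21 copies found among annotated nuclear transcripts together held 1.64% (KO2) to 3.36% (KO4) of all counts. The 7 copies on chromosome 1 held 1.35% to 2.79%. Their share was 2.01% in KO1, 1.35% in KO2, 1.79% in KO3, 2.79% in KO4 and 2.36% in KO5, against 1.63%, 2.58%, 1.54% and 1.39% in WT1 to WT4. The other 14 copies lie elsewhere and are less like the genes, and 9 of them had a mean above 10 CPM over the 9 mice. The highest was Gm13340 on chromosome 2, a copy of mt-Co1 with 97.6% identity, at 2741 CPM. It was followed by Gm13341 (mt-Co2, 736 CPM) and Gm13339 (mt-Nd2, 225 CPM), also on chromosome 2. Gm4076 (mt-Nd5), Gm11407 (mt-Nd5), Gm11512 (mt-Co1), Gm11408 (mt-Nd6) and Gm20594 (mt-Rnr2) had means of 25.5 to 63.9 CPM. With the counts of the 7 copies on chromosome 1 added to those of the mitochondrial genes, the share was 7.76% ± 0.968 (SD, n = 3) and 6.52% ± 1.77 (SD, n = 4), a ratio of 1.19. KO4 was the highest mouse and WT4 the lowest with the copies added too.

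mRNA made up nearly all of the mitochondrial counts. It accounted for 91.2% (WT3) to 93.8% (WT2) of them, rRNA for 5.09% (WT2) to 7.66% (WT3) and tRNA for 1.04% (WT4) to 1.36% (KO5). As a share of all counts, rRNA was 0.312% in KO1, 0.228% in KO2, 0.366% in KO3, 0.454% in KO4 and 0.353% in KO5. It was 0.263%, 0.333%, 0.334% and 0.270% in WT1 to WT4, so KO2 was below every control. The mean rRNA share was 0.344% ± 0.0285 (SD, n = 3) against 0.300% ± 0.0389 (SD, n = 4), a ratio of 1.15, and the mice of the genotypes overlapped.

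The tRNA share of all counts was 0.0550% in KO1, 0.0480% in KO2, 0.0643% in KO3, 0.0963% in KO4 and 0.0887% in KO5. In WT1 to WT4 it was 0.0476%, 0.0699%, 0.0496% and 0.0396%. KO4 and KO5 were above every control, and KO1, KO2 and KO3 were within the range of the controls. The mean was 0.0693% ± 0.0174 (SD, n = 3) against 0.0517% ± 0.0129 (SD, n = 4), a ratio of 1.34. The tRNA genes are 59 to 75 bases long, and reads of longer precursors that cover a tRNA gene cannot be told apart here from reads of the mature tRNA.

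**Figure D2:**
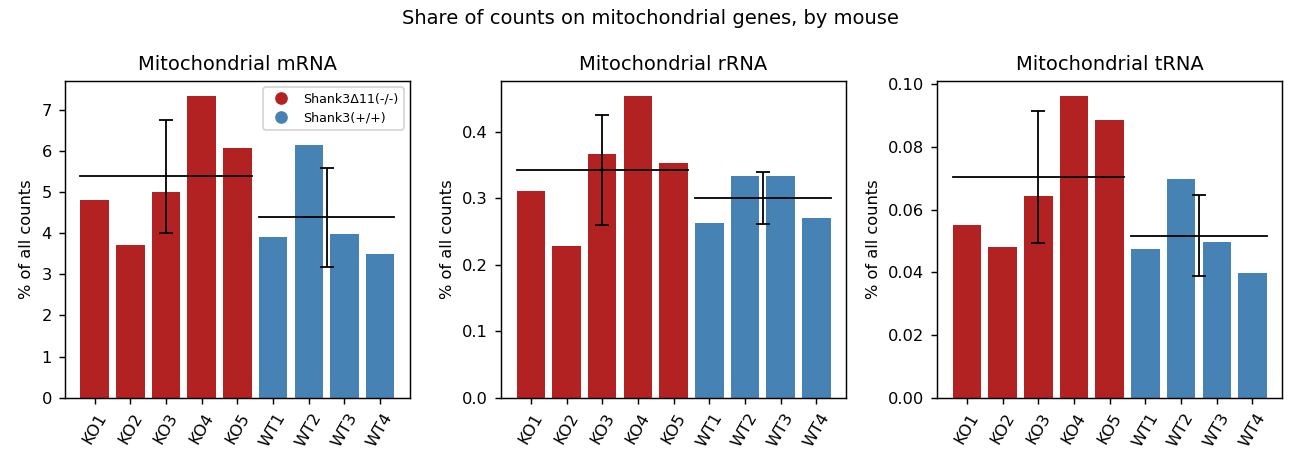
Share of all counts on mitochondrial mRNA, rRNA and tRNA genes (vertical axes, percent) in each of the 9 mice, with the mean of each genotype as a horizontal line and its SD as an error bar (n = 5 and 4). KO4 is the highest mouse in each class and the genotypes overlap.

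Among the messages, the composition varied less between mice than the total. mt-Co1, which encodes the catalytic subunit of complex IV, took 22.7% (WT1) to 24.8% (KO2) of mitochondrial mRNA counts. The SD of its log2 share over the 9 mice was 0.0390, whereas the SD of its log2 CPM (counts per 1000000 counts, scaled for library composition) was 0.40. mt-Cytb, the complex III subunit that the genome encodes, took 12.3% (KO3) to 13.7% (KO5), with an SD of 0.0499 on the log2 share. The 7 complex I messages together took 36.6% (KO5) to 41.2% (WT3), the 3 complex IV messages 36.7% (WT1) to 39.3% (KO4), and the 2 ATP synthase messages 8.56% (WT4) to 10.8% (KO5). All these shares leave out counts on the nuclear copies. On chromosome 1, copies held about as many counts as mt-Co2, mt-Atp6 and mt-Co3, or more. None was found there for mt-Nd1, mt-Nd2 or mt-Cytb, so the shares depend on this choice. mt-Atp8 and mt-Nd4l, the messages read in frames that overlap those of mt-Atp6 and mt-Nd4, varied the most, with SDs of 0.31 and 0.33 on the log2 share. mt-Atp8 was 0.403% of mitochondrial mRNA counts in KO2 and 0.444% in WT4, and 0.240% to 0.293% in the other 7 mice. mt-Nd4l was likewise highest in KO2 and WT4, at 0.484% and 0.542%, and was 0.275% to 0.381% in the others.

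Levels per length were compared as CPM per kb of the annotated gene, averaged over the 9 mice. The counts as deposited leave out those that the copies on chromosome 1 hold, and the order depends on them, so it is given without the copies, with those on chromosome 1, and with all copies found. Without the copies, mt-Co1 was highest at 7675 CPM per kb, followed by mt-Atp6 at 7069 and mt-Nd1, a complex I subunit, at 6751. mt-Co1 was above mt-Atp6 in 7 of 9 mice, and mt-Atp6 was above mt-Nd1 in 6 of 9, so that the order of these 3 messages differed between mice. mt-Nd1 was above mt-Cytb (5730) in 9 of 9 mice, and mt-Cytb was above mt-Co3 (4920) in 9 of 9. mt-Co3 and mt-Co2 (4789), both complex IV subunits, followed, with mt-Co3 above mt-Co2 in 7 of 9 mice. mt-Nd2 (3092), mt-Nd6 (3091) and mt-Nd4 (2995) formed the next group, and mt-Nd2 was above mt-Nd6 in 4 of 9 mice.

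The lower end of the order was held by mt-Nd5 (1754), mt-Nd3 (1236), mt-Atp8 (715) and mt-Nd4l (599), which kept that order in 9 of 9 mice without the copies. Of the rRNAs, mt-Rnr2, which is the 16S rRNA of the large mitochondrial ribosomal subunit, stood at 1757 CPM per kb, level with mt-Nd5, which it exceeded in 5 of 9 mice. mt-Rnr1, the 12S rRNA of the small subunit, stood at 500 CPM per kb. It was below mt-Nd4l in 7 of 9 mice. With the counts of each of the 7 copies on chromosome 1 added to its gene, an alternative chosen after seeing the data, mt-Atp6 was highest at 14827 CPM per kb, followed by mt-Co3 (10352), mt-Co1 (10308), mt-Co2 (9941) and mt-Nd1 (6751). mt-Atp6 was then above mt-Co1 in 9 of 9 mice, and mt-Co3 and mt-Co2 were above mt-Nd1 in 9 of 9. mt-Nd3 (2558) was above mt-Nd5 (1754), and mt-Nd4l (1196) was above mt-Atp8 (715), each in 9 of 9 mice. No copy of mt-Nd5 or mt-Atp8 was found on chromosome 1, so no counts were added to these. With all 21 copies added, also chosen after seeing the data, mt-Atp6 was again highest (14879), but mt-Co1 (12113) and mt-Co2 (11017) stood above mt-Co3 (10352). mt-Co1 was then above mt-Co2 in 7 of 9 mice, and mt-Co2 was above mt-Co3 in 6 of 9, so the order of these 3 complex IV messages depended on which copies were added and differed between mice. How many of these counts belong to the mitochondrial genes was not tested. The sources used here do not give how RNA was selected for the libraries.

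The tRNA genes spanned a wide range of levels. The 5 with the highest mean CPM were mt-Ts1 (241), mt-Te (165), mt-Tl1 (39.1), mt-Tg (34.9) and mt-Ti (32.6), the tRNAs of serine, glutamate, leucine, glycine and isoleucine. In the 4 controls alone mt-Tg had a mean of 8.95 CPM and ranked 8, below mt-Tc (31.6), mt-Tw (11.99) and mt-Ty (10.6), so that its place rests on KO2 to KO5. At the low end, 14 of the 22 tRNA genes had a mean below 10 CPM. mt-Tf, the phenylalanine tRNA, had 1 count in each of KO2, KO4 and KO5 and 0 counts in the other 6 mice, where a count of 0 allows up to 3 counts. It was the only member that did not pass the filter on low counts.

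**Figure D3:**
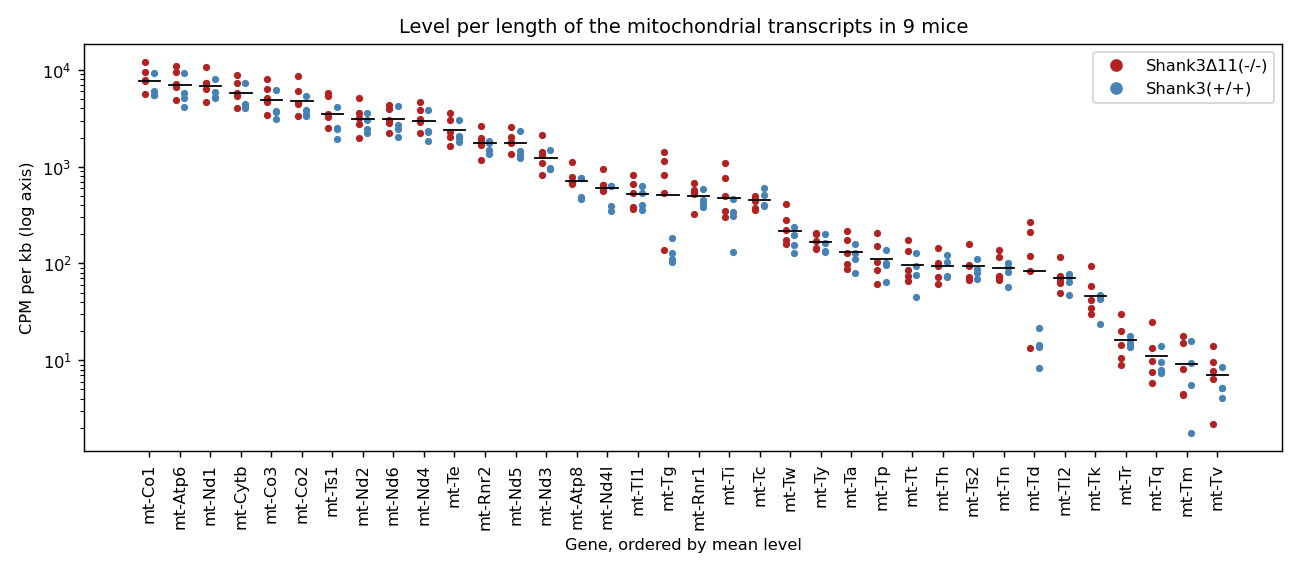
CPM per kb (vertical axis, log scale) of the 36 members with counts in every mouse, without the copies, ordered by their mean over 9 mice, which is the horizontal line. Each point is a mouse, and for mt-Tg and mt-Td 4 Shank3Δ11(-/-) mice lie above the other 5 mice.

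mt-Tg had 298, 1071, 1794, 3703 and 2073 counts in KO1 to KO5, or 9.34, 36.4, 56.5, 97.4 and 78.7 CPM. In WT1 to WT4 it had 243, 426, 256 and 215 counts, or 7.48, 12.6, 8.74 and 6.999 CPM. KO2 to KO5 were each above the highest control, and KO1 lay within the range of the controls. mt-Td had 30, 172, 264, 712 and 392 counts in KO1 to KO5 (0.940, 5.84, 8.31, 18.7 and 14.9 CPM) and 33, 51, 28 and 18 counts in WT1 to WT4 (1.02, 1.51, 0.956 and 0.586 CPM). The mice divided as for mt-Tg, and as they did in the ratios of mt-Co2, mt-Atp6, mt-Co3 and mt-Nd3 to their copies.

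KO1, the Shank3Δ11(-/-) mouse that shared the copy ratios of the controls, thus had 9.34 CPM of mt-Tg against 6.999 to 12.6 CPM in the controls, and 0.940 CPM of mt-Td against 0.586 to 1.51 CPM. mt-Tg and mt-Td made up 1.84% of mitochondrial tRNA counts in KO1 and 1.84% to 2.01% in the 4 controls. They made up 9.18% in KO2, 10.02% in KO3, 11.3% in KO4 and 10.5% in KO5. The part of the read division in these values was not tested.

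The other 3 tRNA genes of the copied stretch did not divide the mice in that way. mt-Ts1 was at 223, 173, 240, 401 and 370 CPM in KO1 to KO5 and at 172, 284, 168 and 135 CPM in WT1 to WT4. mt-Tk, the lysine tRNA, was between 1.97 (KO2) and 6.05 CPM (KO4) in Shank3Δ11(-/-) and between 1.54 (WT1) and 3.07 CPM (WT3) in the controls. mt-Tr, the arginine tRNA, was between 0.612 (KO2) and 2.02 CPM (KO4) and between 0.924 (WT1) and 1.21 CPM (WT2). The genotypes overlapped for each of the 3 genes, and KO2 and KO5 were below every control for mt-Tr.

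Relative to the neighbouring messages the picture was the same. Per 1000 counts of mt-Co3, whose gene ends at the base before mt-Tg, mt-Tg had 2.53 counts in KO1 and 2.60 to 3.00 in the controls, and 13.7, 14.04, 15.4 and 15.9 in KO2 to KO5. Per 1000 counts of mt-Co2, mt-Td had 0.306 counts in KO1 and 0.223 to 0.421 in the controls, and 2.58, 2.67, 3.18 and 3.58 in KO2 to KO5.

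**Figure D4:**
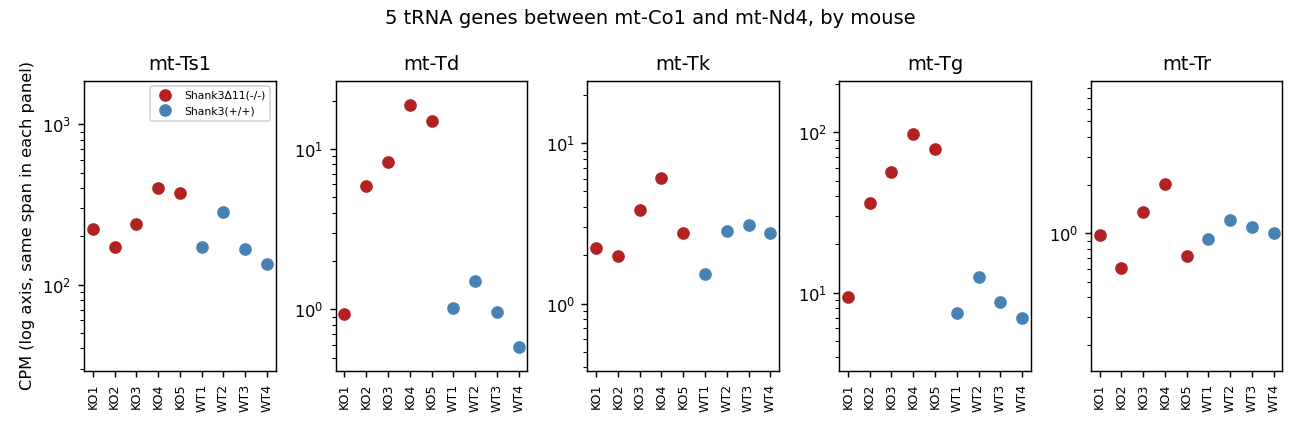
CPM (vertical axis, log scale, with the same span in each panel) of the 5 tRNA genes that lie in the stretch copied to chromosome 1, with 1 point per mouse. For mt-Td and mt-Tg, KO2 to KO5 lie above KO1 and the 4 Shank3(+/+) mice, whereas the genotypes overlap for mt-Ts1, mt-Tk and mt-Tr.

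The comparison of the genotypes used edgeR's quasi-likelihood test over all genes with enough counts, with p-values adjusted by the Benjamini-Hochberg method. A gene was called when it had a p below 0.05 and a false discovery rate below 25%, the limits that the study set. With limma the study reported differentially expressed genes under these limits, and the counts below are not those of the study. Of 21809 genes tested with 3 mice against 4, 0 were called (0%), and 453 had an unadjusted p below 0.05 (2.08%), of which 253 were higher in Shank3Δ11(-/-) (1.16%). Of the 36 members tested, 0 were called and 2 had an unadjusted p below 0.05, both higher in Shank3Δ11(-/-). These were mt-Td, with a log2 fold change of 2.96 ± 0.80 (SE, edgeR p = 0.00696, exact permutation p = 0.229), and mt-Tg, with 2.42 ± 0.65 (SE, edgeR p = 0.00850, exact permutation p = 0.114). Each had an edgeR adjusted p of 1.00, and the smallest p that the 2-sided exact permutation test allows for 3 mice against 4 is 0.0571, so that test could not go below 0.05 here. DESeq2 and limma-voom also called 0 members, and of all genes they called 6 and 0. The count of 2 members was 3 by DESeq2, where 1.80% of all genes had an unadjusted p below 0.05, and 3 by limma-voom, with 1.95% of all genes. It was 14 without WT2, with 2.53% of all genes, and 0 when the level of Xist was added as a covariate, with 2.71% of all genes.

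KO1 decided whether these 2 genes were called. Without KO1, 15 of 22247 genes were called (0.0674%), and mt-Tg (log2 fold change 2.91 ± 0.23 SE, edgeR adjusted p = 0.00129) and mt-Td (3.49 ± 0.33 SE, edgeR adjusted p = 0.00479) were among them. That fit sets 2 mice, KO3 and KO5, against 4. Both belong to the set of KO2 to KO5 by the copy ratios, and no control does. Genotype and that set cannot be told apart in this fit.

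Over all 9 mice, 0 of 21735 genes were called (0%), 442 had an unadjusted p below 0.05 (2.03%) and 252 of these were higher in Shank3Δ11(-/-) (1.16%). mt-Td and mt-Tg were again the 2 members with a p below 0.05. The log2 fold change was 3.25 ± 0.75 (SE) for mt-Td and 2.63 ± 0.60 (SE) for mt-Tg, each with an edgeR p of 0.00186 or 0.00187 and an adjusted p of 1.00. The ratio of the mean CPM was 9.58 for mt-Td and 6.22 for mt-Tg, with 4 of 5 Shank3Δ11(-/-) mice above every control. By the exact permutation test, 2-sided, p was 0.0635 for mt-Td and 0.0317 for mt-Tg, and the smallest possible p is 0.0159. Without KO1, that is with 4 mice against 4, 7 of 21469 genes were called (0.0326%), and both tRNAs were called with an edgeR adjusted p of 0.0113. Those 4 knock-outs are the set of KO2 to KO5, so here too genotype and that set cannot be told apart. The count of 2 became 12 without KO2, where 3.46% of all genes had an unadjusted p below 0.05, 14 without WT2 (2.71% of all genes) and 4 without WT4 (2.11%).

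The other 34 members gave positive and negative log2 fold changes, and none of them had an edgeR p below 0.05. By DESeq2 and by limma-voom 1 of them did, mt-Ts1, a serine tRNA, with a log2 fold change of 0.55 ± 0.25 (SE, DESeq2 adjusted p = 1.00) and 0.56 ± 0.25 (SE, limma-voom adjusted p = 1.00). With 3 mice against 4, 29 were positive and 5 negative, and the values ran from -0.14 (mt-Tc, the cysteine tRNA) to 0.74 (mt-Ti). The median over all 36 members was 0.21, and over all 21809 genes tested it was -0.0081. When each mouse was left out, the median of the members ran from 0.14 (without WT1) to 0.33 (without WT2). The SD of the mean log2 CPM of the members was 0.26 among the 4 controls. Over all 9 mice, 33 were positive and 1 negative, with a median of 0.32 over the 36 members.

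All 13 messages had a positive log2 fold change with 3 mice against 4, from 0.16 to 0.36, with edgeR p-values of 0.111 to 0.388 and exact permutation p-values of 0.171 to 0.457. mt-Co3 had the highest value, 0.36 ± 0.22 (SE, edgeR p = 0.128, exact permutation p = 0.171), with 3693, 2660, 4024, 6306 and 4955 CPM in KO1 to KO5 and 2857, 4845, 2919 and 2460 CPM in WT1 to WT4. WT2 was above KO1, KO2 and KO3. With the counts of the copies added, the log2 fold change of mt-Co3 was 0.27 ± 0.22 (SE), and that of mt-Co1, 0.33 ± 0.20 (SE), was the highest of the 13. mt-Nd2 had the lowest value, 0.16 ± 0.17 (SE, edgeR p = 0.388, exact permutation p = 0.457), with 2886, 2058, 3684, 5265 and 3281 CPM and 2315, 3736, 3120 and 2543 CPM. mt-Co1 stood at 11946, 8809, 12054, 18462 and 14675 CPM in KO1 to KO5 and at 8593, 14298, 9410 and 8479 CPM in WT1 to WT4. Its log2 fold change was 0.33 ± 0.19 (SE, edgeR p = 0.118, exact permutation p = 0.171).

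The remaining messages were close to one another. The log2 fold change was 0.34 ± 0.22 (SE) for mt-Nd4, 0.33 ± 0.25 for mt-Atp6, 0.32 ± 0.18 for mt-Co2 and 0.28 ± 0.21 for mt-Cytb. It was 0.27 ± 0.21 for mt-Nd4l, 0.26 ± 0.24 for mt-Nd6, 0.23 ± 0.18 for mt-Nd3 and 0.22 ± 0.21 for mt-Nd5. It was 0.19 ± 0.17 for mt-Nd1 and 0.19 ± 0.19 for mt-Atp8. The messages moved with the mouse, since KO4 was the highest mouse for 12 of the 13 and WT4 or KO2 the lowest for 11.

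Both rRNAs had positive log2 fold changes whose p-values did not pass the limit. mt-Rnr1 was at 501, 309, 553, 650 and 522 CPM in KO1 to KO5 and at 399, 563, 435 and 365 CPM in WT1 to WT4, with a log2 fold change of 0.24 ± 0.15 (SE, edgeR p = 0.124, exact permutation p = 0.229). mt-Rnr2 was at 2664, 1876, 3132, 4179 and 3022 CPM and at 2145, 2780, 2885 and 2334 CPM, with 0.20 ± 0.14 (SE, edgeR p = 0.171, exact permutation p = 0.171). KO2 was below every control for both. Of the other abundant tRNAs, the log2 fold change was 0.54 ± 0.26 (SE, edgeR p = 0.0640, exact permutation p = 0.171) for mt-Ts1 and 0.74 ± 0.44 (SE, edgeR p = 0.135, exact permutation p = 0.286) for mt-Ti. It was 0.24 ± 0.23 (SE, edgeR p = 0.309, exact permutation p = 0.400) for mt-Te and 0.12 ± 0.23 (SE, edgeR p = 0.606, exact permutation p = 0.686) for mt-Tl1.

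**Figure D5:**
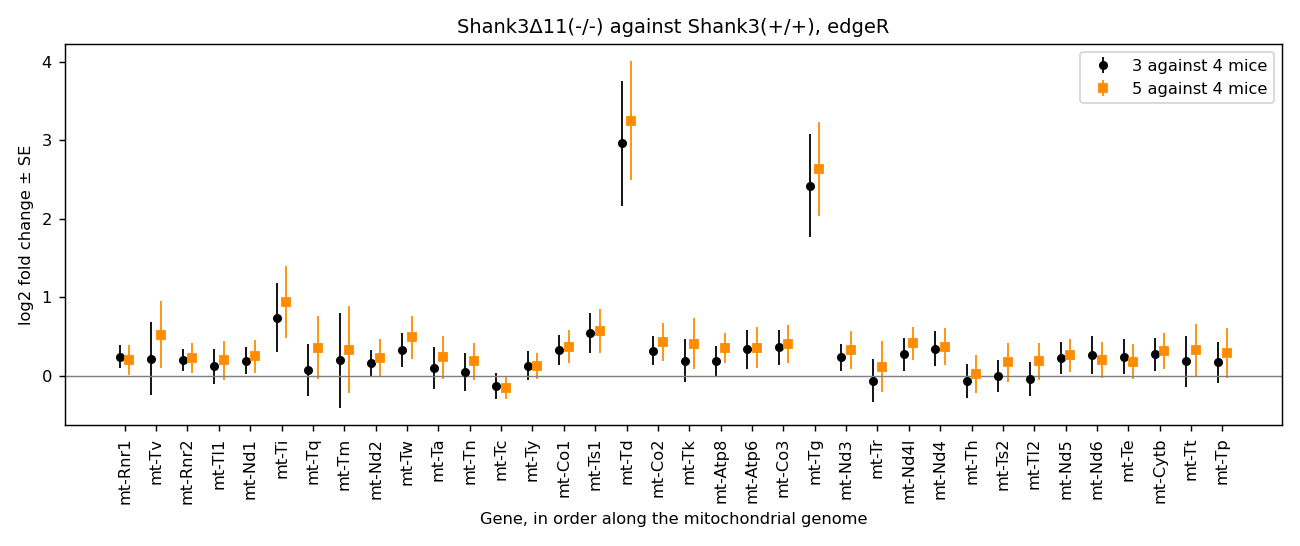
log2 fold change of Shank3Δ11(-/-) against Shank3(+/+) (vertical axis, with the SE as an error bar) for the 36 members tested, in order along the genome, for 3 against 4 mice (circles) and 5 against 4 mice (squares). mt-Td and mt-Tg lie above 2, and the other 34 lie between -0.15 and 0.94.

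The proportions between transcripts were compared through 7 ratios of counts, each with a 2-sided exact permutation test on the log2 ratio, and none passed the test (exact permutation adjusted p = 1.00 for each with 3 mice against 4). The adjusted p of a single ratio among 7 cannot go below 0.400 with 3 mice against 4 or 0.111 with 5 against 4, so 1 changed ratio alone could not have passed 0.05. Counts on nuclear copies were left out of all 7 ratios, and mt-Co1, mt-Atp6, mt-Nd4l and mt-Nd4 have copies on chromosome 1. The ratio of mt-Nd6 to mt-Nd5 sets the only message of the light strand against its neighbour on the heavy strand. It was 0.499, 0.468, 0.452, 0.438 and 0.612 in KO1 to KO5 and 0.580, 0.514, 0.488 and 0.469 in WT1 to WT4. KO4 was the lowest mouse and KO5 the highest, so the Shank3Δ11(-/-) mice spanned the controls (exact permutation p = 0.971 for 3 against 4 and 0.571 for 5 against 4). These genes overlap by 14 bases on opposite strands, and the sources used here do not give whether counting used the strand, so reads of the overlap cannot be told apart.

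The ratio of mt-Rnr2 to mt-Rnr1 was 5.32 to 6.43 in Shank3Δ11(-/-) and 4.93 to 6.63 in Shank3(+/+), with an exact p of 0.686 for 3 against 4. mt-Rnr2 relative to mt-Nd1, which lies downstream of it beyond mt-Tl1, was 0.440, 0.422, 0.442, 0.412 and 0.430 in KO1 to KO5. In WT1 to WT4 it was 0.427, 0.356, 0.508 and 0.476, so that every Shank3Δ11(-/-) mouse lay inside the range of the controls. mt-Co1 relative to mt-Nd1 was 1.98, 1.98, 1.70, 1.82 and 2.09 in KO1 to KO5 and 1.71, 1.83, 1.66 and 1.73 in WT1 to WT4. This was the ratio with the lowest p (log2 difference 0.15, exact p = 0.229 for 3 against 4, and 0.14, exact p = 0.111 for 5 against 4). mt-Cytb relative to mt-Nd1 was 0.873 to 1.19 in Shank3Δ11(-/-) and 0.885 to 1.07 in Shank3(+/+).

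The ratios of the overlapping messages picked out the same pair of mice. mt-Atp8 relative to mt-Atp6, whose genes share 43 bases, was 0.0547 in WT4 and 0.0429 in KO2, and 0.0243 to 0.0305 in the other 7 mice. mt-Nd4l relative to mt-Nd4, whose genes share 7 bases, was 0.0742 in WT4 and 0.0564 in KO2, and 0.0323 to 0.0483 in the others. The exact p was 1.00 for both with 3 mice against 4, and 0.968 and 0.873 with 5 against 4. The sources used here do not give how reads of the shared bases were assigned.

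Nuclear genes that act in the replication and transcription of the mitochondrial genome and in the processing, modification and decay of its RNA were taken as a list. Of 47 such genes, 46 were tested, 0 had a p below 0.05 by edgeR or DESeq2, against 2.08% of all genes tested by edgeR, and 20 log2 fold changes were positive and 26 negative with a median of -0.0096. Tfam, which packages mitochondrial DNA and is needed for its transcription, was at 34.9 to 47.9 CPM in KO1, KO3 and KO5 and 34.9 to 43.6 CPM in the controls (log2 fold change -0.03 ± 0.13 SE). Polrmt, the mitochondrial RNA polymerase, had 0.01 ± 0.14 (SE). Lrpprc and Slirp, partners in a complex that stabilises mitochondrial messages, had -0.16 ± 0.11 (SE, edgeR p = 0.177, exact permutation p = 0.229) and -0.03 ± 0.12 (SE). Lrpprc had the lowest p of the list.

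A further list of 20 nuclear genes held respiratory chain subunits together with Cs and Vdac1, mitochondrial genes that do not encode such subunits. Of these 20 genes, 20 were tested and 0 had a p below 0.05 by edgeR or DESeq2. Among them 15 values were positive and 5 negative, with a median of 0.02. Cox4i1, a nuclear subunit of complex IV, was at 470, 422, 510, 537 and 522 CPM in KO1 to KO5 and 446, 482, 434 and 565 CPM in WT1 to WT4. Its log2 fold change was 0.05 ± 0.12 (SE, edgeR p = 0.710, exact permutation p = 0.629). The summed level of these 20 genes was 4655 (KO2) to 5405 CPM (WT4), and WT4, the highest mouse here, had the lowest mitochondrial share.

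The tissue was checked against markers. Acta1 and Ckm, skeletal actin and muscle creatine kinase, were at 17434 to 21225 CPM and 3732 to 5668 CPM. Nppa and Myl7, markers of heart, and Ucp1, which marks brown fat, were below 1 CPM in each mouse. The other heart marker listed, Myh6, a myosin heavy chain, was at 254, 204, 141, 297 and 138 CPM in KO1 to KO5 and at 217, 300, 293 and 289 CPM in WT1 to WT4 (log2 fold change -0.64 ± 0.22 SE, edgeR p = 0.0141, adjusted p = 1.00, exact permutation p = 0.114). The other brown fat markers, Cidea and Elovl3, were at 8.47 to 22.4 CPM and 3.79 to 6.83 CPM. The summed level of 6 skeletal muscle markers was 53445 to 60997 CPM, highest in WT4. The summed level of 5 erythroid markers was 5777 CPM in KO1 and 1224 to 2194 CPM in the other 8 mice. The summed level of 4 white fat markers was 1094 CPM in KO5 and 183 to 403 CPM in the others, and that of 3 Schwann cell markers was 396 CPM in KO5 and at most 183 CPM in the others. The summed level of 3 cartilage and bone markers was 196 CPM in KO4, the mouse with the highest mitochondrial share, and 27.7 to 63.8 CPM in the others. That of 3 epidermis markers was 38.9 CPM in WT4, the mouse with the lowest share, and 5.20 to 20.3 CPM in the others. That of 3 leukocyte markers was 36.2 to 60.3 CPM. Xist, which is made from the inactive X chromosome, was at 619 to 926 CPM in 2 mice of each genotype (KO3, KO5; WT3, WT4) and at or below 3.23 CPM in the other 5. mt-Tg was above 36 CPM both in KO3 and KO5 and in KO2 and KO4. It was 9.34 CPM in KO1, 7.48 and 12.6 CPM in WT1 and WT2, and below 9 CPM in WT3 and WT4. The part of sex in these mt-Tg levels was not tested. The part of these cell types in the mitochondrial share was not tested.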

How the data were processed

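The authors mapped reads to mm10 with HISAT2 (version 2.2.1), kept concordantly mapped reads and counted them per gene with featureCounts (version 2.0.1). The deposited values are raw counts for 9 libraries. The sources used here do not give the annotation release, the strand setting or the treatment of reads with several positions. Symbols, positions and sequences were taken from GENCODE M21 (GRCm38). Nuclear copies were sought with BLAST (version 2.17.0) among its annotated transcripts, in the same orientation, and the genome sequence was not searched. Matches had at least 100 aligned bases and 85% identity, with over 99% identity for the 7 copies on chromosome 1. Counts were scaled by TMM, and genes passed filterByExpr (minimum count 10, minimum total 15).

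Genotypes were compared with edgeR 4.0.16 (R 4.3.3, robust quasi-likelihood test, 2-sided, Benjamini-Hochberg over all genes tested). Alternatives were DESeq2 1.42.0, limma-voom 3.58.1, other scalings, no filter, the replicate block, Xist as a covariate, the copies added, all 9 mice, and each mouse left out. Ratios were tested with the exact permutation test of scipy 1.17.1, with adjustment over 7 ratios, and single genes on log2(CPM + 0.5). Shares were given no test.

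The members and lists were chosen with earlier results of these data known. Named were the 13 mRNA and 2 rRNA genes, the 5 tRNA genes with the highest mean CPM, tRNA genes with an unadjusted p below 0.05 or with 0 counts in a mouse, nuclear copies above 10 CPM (1 of which is not reported here), and Tfam, Polrmt, Lrpprc, Slirp and Cox4i1. Others were named after their values were seen. Intervals and p-values measure the spread between mice, and nothing in the labels says whether mice shared a litter.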

Additional observations from a re-analysis of the deposited data

Results flagged for a closer look

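In groups of 4 or 5 mice, a mouse was set aside for a closer look when its distance to the nearest other mouse, divided by the range of its group, passed Dixon's 95% value. Among 64 groups of values 7 passed, and chance gives about 1 in 20. A further 7 passed among 16 groups of the copy ratios and of the share of mt-Td and mt-Tg, measures that were chosen after their values were seen, so that no chance rate applies to them. In the Shank3Δ11(-/-) group KO1 lay below KO2 to KO5 in 6 measures. These were the ratios of counts of mt-Co2 to Gm28661 (0.865), mt-Atp6 to Gm10925 (0.854), mt-Co3 to Gm28437 (0.835), mt-Nd3 to Gm28438 (0.875) and mt-Nd4l to Gm10222 (0.948), and the share of mt-Td and mt-Tg in mitochondrial tRNA counts (1.84%).

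KO4 lay above the other Shank3Δ11(-/-) mice for mt-Atp8 (229 CPM) and mt-Nd4l (279 CPM). In the controls WT2 lay above the other mice for mt-Co1 (14298 CPM), mt-Nd3 (514 CPM) and mt-Cytb (8370 CPM). WT4 lay apart in 3 ratios. It was above the other controls for mt-Atp8 to mt-Atp6 (0.0547) and mt-Nd4l to mt-Nd4 (0.0742), and below them for mt-Nd4l to Gm10222 (0.920).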

How the results depend on the processing

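The ratios of the mitochondrial, rRNA and tRNA shares stayed above 1 under each alternative run. Of the 36 members tested, 2 had an unadjusted p below 0.05, and this count was 16 with the replicate block, 0 with Xist as a covariate, and 2 to 14 when each mouse was left out (14 without WT2). Of all genes tested, 2.08% had such a p, against 3.87% with the block, 2.71% with Xist and 2.53% without WT2. Over all 9 mice with the block it was 2 members, with 0 called and 2.08% of all genes. Over all 9 mice it was 2 to 14 when each was left out (12 without KO2, 14 without WT2, 4 without WT4, with 3.46%, 2.71% and 2.11% of all genes). No member was called with 3 mice against 4 or with 5 against 4. With the replicate block 1 was called (mt-Nd4l, log2 fold change 0.69), and 9 of all 21809 genes were. When each mouse was left out, 0 to 2 members were called in both comparisons, and the 2 were mt-Tg and mt-Td without KO1. Their log2 fold changes were 2.91 and 3.49 in the fit of 2 mice against 4, where 0.0674% of all genes were called. With 4 against 4 it was 0.0326% of all genes. Same-numbered mice correlated at 0.431, 0.0740, 0.400 and 0.148 in their deviations from the group means, so the numbers were not taken to pair the mice. Only KO1 with WT1 and KO3 with WT3 share a number in the comparison of 3 against 4, which allows no p below 0.5 for a ratio under the block.

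Some values changed sign, and not all of these were near 0. The mt-Nd6 to mt-Nd5 log2 difference was -0.060 over 9 mice, -0.16 with the block, and -0.11 to 0.11 over the fits without 1 mouse. mt-Rnr2 to mt-Rnr1 was 0.014 over 9 mice and -0.13 to 0.014 without 1 mouse. mt-Nd4l to mt-Nd4 was 0.059 over 9 mice, 0.33 with the block and -0.19 to 0.21 without 1 mouse, and mt-Atp8 to mt-Atp6 was 0.16 with the block and -0.27 to 0.12. mt-Rnr2 to mt-Nd1 was -0.10 to 0.070 and mt-Cytb to mt-Nd1 -0.0039 to 0.22 without 1 mouse. Of log2 fold changes, mt-Te was -0.050 to 0.44, mt-Tl1 -0.082 to 0.31 and Tfam -0.19 to 0.053 without 1 mouse. Polrmt was -0.016 over 9 mice, -0.0057 with library totals and -0.11 to 0.090 without 1 mouse, and Slirp was 0.064 with the block and -0.071 to 0.049. The cause was not tested for any of these. Of the 26 genes followed, 18 kept their direction and their side of the call.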

Other observations

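A pair of nuclear genes, named after their values were seen, divided the mice as mt-Tg and mt-Td did. How many of all genes divide the mice in this way was not counted, so the pair serves as an example only. Fth-ps3, a pseudogene of the ferritin heavy chain, had 23, 148, 207, 209 and 179 counts in KO1 to KO5 and 16, 15, 21 and 18 counts in WT1 to WT4. Gm43333 had 4, 53, 56, 113 and 58 counts in KO1 to KO5 and 2, 4, 4 and 0 counts in WT1 to WT4. KO2 to KO5 were each above KO1 and the 4 controls for both genes. The reason was not tested.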
